A study of Arabidopsis thaliana with 9 samples.

Results

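Whole seedlings of Arabidopsis thaliana, the thale cress, were compared 48 h after silver nitrate with seedlings sampled at 0 h. The comparison took every array labelled 48 h and every array labelled 0 h, 6 of the 9 arrays of the study, and 21042 of the 25665 loci on the array were tested. The 48 h group was Col-0 seedlings, 3 weeks after germination, that had spent 1 week on GM agar plates and 2 weeks in shaken GM liquid culture under continuous light before 0.1 mM AgNO3 was added. The 0 h group was seedlings of the same accession and culture, sampled at the start of the treatment. The groups thus had the same age when the treatment began, and the 48 h group was sampled 48 h later. At each time 3 independent experiments with different plants gave 3 samples, each labelled with 1 dye and hybridised to an Agilent oligonucleotide array, and the other 3 arrays were from 72 h. The 0 h samples were the reference, so an effect of silver cannot be told apart from that of the time spent in culture. RNA came from whole seedlings, in which fewer cells of a type and less RNA per cell cannot be told apart either.

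Silver ions bind the sulfur of thiol groups in proteins and small molecules, can replace copper in copper sites, and block ethylene perception at the hormone's receptors. Plants meet toxic metal ions with chelation, transport into the vacuole, repair or removal of damaged proteins, and a reallocation of sulfur and nitrogen. Chloroplasts and mitochondria, which carry electron transport chains with many metal and thiol sites, signal damage to the nucleus through retrograde pathways.

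Signals are given in units in which the 75th percentile of an array's signal is 1000, and a change is the log2 difference, 48 h minus 0 h, with its standard error. A locus was called when the adjusted p of limma's moderated test (Benjamini-Hochberg over all 21042 loci) was under 0.05, and every adjusted p below is of that kind. Before scaling, the 75th percentile was 3401, 3217 and 1966 intensity units on the 48 h arrays, against 2925, 2758 and 1583 on the 0 h arrays. The lowest value at each time came from slide 3, which held replicate 3 of both times. Spots well above background made up between 65.4% and 68.3% of each of the 6 arrays.

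The 6 markers of green leaf cells were all above background on all 6 arrays, and their summed level was between 251701 and 284277 units in 48 h seedlings, against 477082 to 496560 units in 0 h seedlings. Of these 6, limma called 4 lower and 0 higher, and 2 did not pass. The call of CAB1, 1 of the 4, ended under 12 of 17 alternatives to the processing. The 5 root markers summed to between 3075 and 3900 units in 48 h seedlings, against 2640 to 5559 units in 0 h seedlings. Of these 5, 4 were above background on all 6 arrays. The sum joins members called in opposite directions, 1 higher and 2 lower, as given below. The 4 phloem markers summed to between 21777 and 28133 units in 48 h seedlings and 17836 to 27947 units in 0 h seedlings, and limma called 0 of them (1 had an unadjusted p under 0.05). Of 8 floral and pollen markers 6 were tested, and all 6 were above background on all 6 arrays. They summed to between 346 and 443 units in 48 h seedlings, against 426 to 597 units in 0 h seedlings. That sum also joins opposite directions, with AP3 called higher and AG lower. Each of these calls ended under 11 of the 17 alternatives to the processing described below. Markers of green tissue and of root were thus both measured in the seedlings.

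Of the 21042 loci, 6298 (29.9%) changed: 2968 (14.1%) rose and 3330 (15.8%) fell. At least 2-fold rises numbered 1683 and at least 2-fold falls 1911. Of the 6298, 6288 moved the same way in all 3 pairs of same-numbered samples. The calls rest on these same samples, so that count is no separate support for them. The 48 h and 0 h samples did not overlap in 9074 of all 21042 loci, among them 6246 of the 6298 called. Groups that do not overlap are thus common among called loci. The median change over all loci was 0.01. Rises made up 47.1% of the calls on this scale, against 59.6% in the authors' deposited value table, in which the median change of all loci was 0.15. The share was 38.5% with median scaling and 39.0% with the normexp background, where the median changes were -0.09 and -0.05. Without slide 3, the dimmest, 1868 loci rose.

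Loci that the reference gene table gives no symbol were 11810 of those tested (56.1%) and 3356 of those called (53.3%). Among them 1538 rose and 1818 fell, 28.4% of the 11810. Among the 9232 loci with a symbol 1430 rose and 1512 fell, 31.9%. Loci without a symbol were 36 of the 100 largest rises and 55 of the 100 largest falls. Of loci that were well above background on all 3 arrays at 48 h and on 0 arrays at 0 h there were 91, and 57 of them had no symbol. The reverse pattern, 0 arrays at 48 h and all 3 at 0 h, held for 151 loci, of which 101 had no symbol.

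AT3G02480 had the largest rise among loci without a symbol that were above background on all 6 arrays. It stood at 3267, 6329 and 3288 units in 48 h seedlings, against 8.55, 23.8 and 36.3 units in 0 h seedlings (log2 change 7.71 ± 0.68, adjusted p = 0.000157). AT1G26390 stood at 4042, 2702 and 6506 units in 48 h seedlings, against 67.3, 16.7 and 11.01 units in 0 h seedlings (log2 change 7.49 ± 0.62, adjusted p = 0.000120). In both, the lowest 48 h sample was far above the highest 0 h sample. AT4G36700 stood at 9209.9, 13508 and 6549 units in 48 h seedlings, against 40.9, 122 and 45.9 units in 0 h seedlings (log2 change 7.25 ± 0.45, adjusted p = 4.35e-05). AT1G12030 stood at 16026, 25842 and 13048 units in 48 h seedlings, against 124, 466 and 249 units in 0 h seedlings (log2 change 6.17 ± 0.53, adjusted p = 0.000139). For both loci replicate 2 was the highest sample at each time. AT1G66100 stood at 758, 3443 and 2253 units in 48 h seedlings, against 15.6, 42.0 and 26.9 units in 0 h seedlings (log2 change 6.11 ± 0.75, adjusted p = 0.000616). Replicate 1 was the lowest of the 48 h samples for that locus. AT2G38823 stood at 542, 758 and 973 units in 48 h seedlings, against 22.2, 10.4 and 14.6 units in 0 h seedlings (log2 change 5.62 ± 0.48, adjusted p = 0.000130), and AT3G28510 at 4796, 7277 and 4944 units in 48 h seedlings, against 112, 244 and 95.3 units in 0 h seedlings (log2 change 5.34 ± 0.43, adjusted p = 0.000106). The groups overlapped for none of these loci. The other 5 of the 12 largest rises were AT5G28237 (5.13 ± 0.43), AT1G26410 (4.99 ± 0.49), AT2G28710 (4.34 ± 0.29), AT5G26690 (4.30 ± 0.23) and AT5G24640 (4.08 ± 0.76, adjusted p = 0.00442, the highest adjusted p of the 12). AT1G26390 and AT1G26410 lie in the same stretch of chromosome 1 and appear again below among runs of neighbours.

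AT5G52020 had the largest fall of the same kind, at 26.01, 29.3 and 29.1 units in 48 h seedlings, against 2168, 2376 and 1984 units in 0 h seedlings (log2 change -6.27 ± 0.19, adjusted p = 5.85e-06). AT2G17660 stood at 46.1, 42.5 and 33.4 units in 48 h seedlings, against 1288, 1353 and 1754 units in 0 h seedlings (log2 change -5.17 ± 0.27, adjusted p = 2.34e-05), and AT1G33760 at 51.1, 97.7 and 103 units in 48 h seedlings, against 2373, 2962 and 3125 units in 0 h seedlings (log2 change -5.13 ± 0.27, adjusted p = 2.80e-05). In these 3 loci every 48 h sample was below every 0 h sample. AT2G39040 stood at 11.7, 19.5 and 14.2 units in 48 h seedlings, against 854, 362 and 421 units in 0 h seedlings (log2 change -5.10 ± 0.42, adjusted p = 0.000120). AT1G05240 stood at 74.1, 77.6 and 43.7 units in 48 h seedlings, against 3098, 1426 and 1529 units in 0 h seedlings (log2 change -4.90 ± 0.37, adjusted p = 8.82e-05), and AT3G49960 at 13.8, 20.8 and 15.9 units in 48 h seedlings, against 578, 265 and 397 units in 0 h seedlings (log2 change -4.57 ± 0.29, adjusted p = 4.38e-05). In each of the last 3, replicate 1 was the highest 0 h sample, and all 48 h samples were below every 0 h sample. AT3G09870, for which the reference table lists the synonym SAUR48, a name of the small auxin-upregulated RNA family, stood at 38.4, 30.9 and 30.4 units in 48 h seedlings, against 895, 1018 and 1215 units in 0 h seedlings (log2 change -4.97 ± 0.19, adjusted p = 1.29e-05). AT3G47070, well above background at both times, stood at 3099.8, 1994 and 2556 units in 48 h seedlings, against 56227, 43511 and 51906 units in 0 h seedlings (log2 change -4.32 ± 0.36, adjusted p = 0.000120). The other 4 of the 12 largest falls were AT1G20520 (-4.84 ± 0.26), AT5G17350 (-4.61 ± 0.18), AT4G27654 (-4.51 ± 0.55) and AT5G38700 (-4.42 ± 0.49). Replicate 1 was the highest 0 h sample in 4 of these 12 falls, against 31.8% of all 3330 loci that fell.

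**Figure D1:**
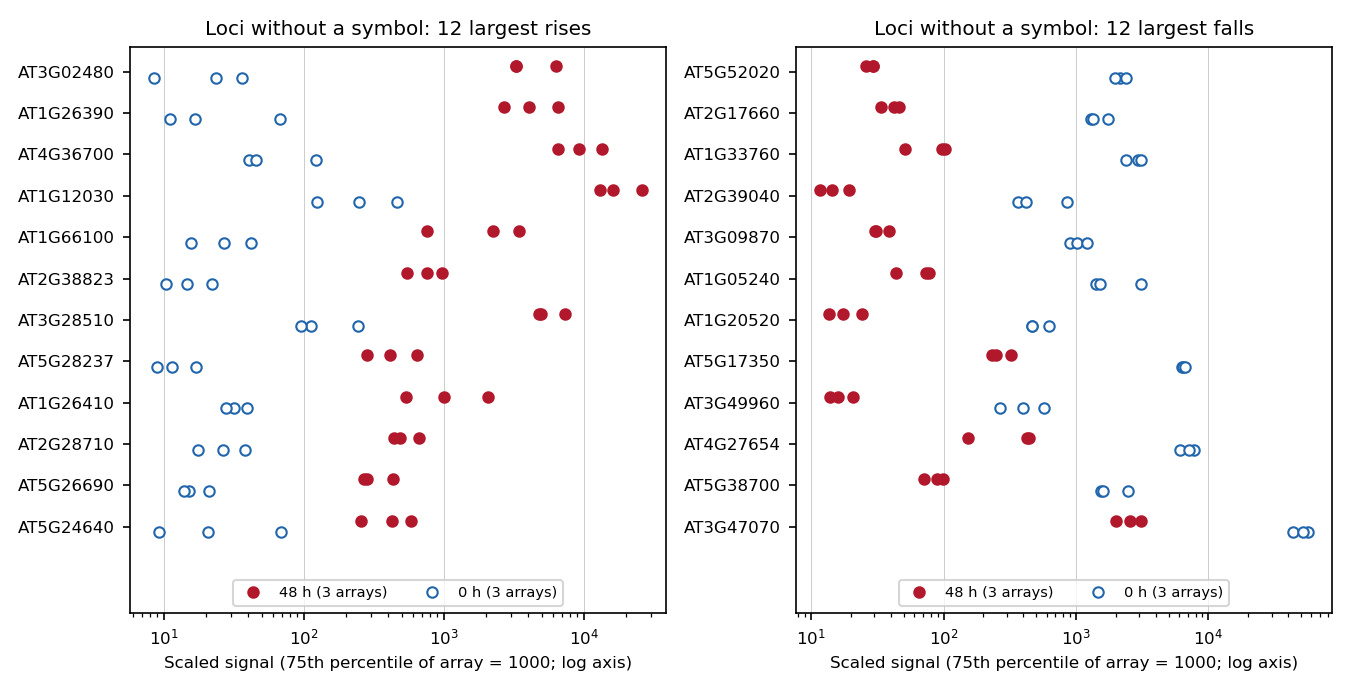
Scaled signal (75th percentile of each array = 1000, log axis) of the 12 largest rises and the 12 largest falls among loci without a symbol, with each of the 3 samples at 48 h and at 0 h as a point. The 48 h and 0 h points do not overlap for any of the 24 loci, and replicate 1 is the highest 0 h point for 4 of the 12 falls.

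Some loci without a symbol were not well above background at one of the times, so that only a lower bound of the change could be given. The bound set the mean at the bright time against the lowest signal that was well above background on each array of the dim time. AT5G46960 was at least 28.1-fold higher, with 190.4, 115 and 236 units in 48 h seedlings, against 1.91, 1.17 and 2.104 units in 0 h seedlings (adjusted p = 2.80e-05). Its neighbour AT5G46950 was at least 19.6-fold higher, with 149, 71.0 and 165 units in 48 h seedlings, against 1.32, 1.89 and 1.61 units in 0 h seedlings (adjusted p = 2.80e-05). The adjacent pair was not well above background on any 0 h array. AT3G54530 was at least 30.6-fold higher (adjusted p = 0.00194, and 0.0519 with the normexp background), and AT5G63230 at least 20.07-fold higher (adjusted p = 0.000219). AT5G57760 was at least 108-fold lower, the largest bound in either direction among loci without a symbol, with 4.39, 1.79 and 1.95 units in 48 h seedlings, against 240.3, 1013 and 1437 units in 0 h seedlings (adjusted p = 9.23e-05). Replicate 1 was the lowest of its 0 h samples. The bounds for AT1G19900, AT5G04960 and AT1G76210 were at least 49.7-fold, 31.3-fold and 26.6-fold lower (adjusted p = 6.68e-05, 2.28e-05 and 0.000542).

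Among loci with a symbol, those at ranks 9 to 16 by size of rise began with AOX1D (AT1G32350), a mitochondrial alternative oxidase, which takes electrons from the ubiquinone pool past the cytochrome pathway. It stood at 2685, 4443 and 8507 units in 48 h seedlings, against 95.3, 237 and 120.4 units in 0 h seedlings (log2 change 5.06 ± 0.47, adjusted p = 0.000191). PXMT1 (AT1G66700), a methyltransferase of the SABATH family, stood at 7587, 4165 and 11950 units in 48 h seedlings, against 226, 223 and 226 units in 0 h seedlings (log2 change 5.005 ± 0.38, adjusted p = 9.17e-05). PAP1 (AT1G56650), the MYB factor that switches on anthocyanin synthesis, stood at 171, 755 and 799.6 units in 48 h seedlings, against 8.32, 22.0 and 20.04 units in 0 h seedlings (log2 change 4.93 ± 0.70, adjusted p = 0.00120). Replicate 1 was the lowest at both times for PAP1, and all 48 h samples were above every 0 h sample. The rest of this group were DREB19 (AT2G38340), a drought-response transcription factor of the AP2/ERF family (5.01 ± 0.41), the glucosyltransferase UGT76E12 (AT3G46660; 4.97 ± 0.86), the cytochrome P450 CYP81D11 (AT3G28740; 4.84 ± 0.46), ANK (AT5G54610; 4.70 ± 0.38) and the beta-glucosidase BGLU28 (AT2G44460; 4.66 ± 0.84).

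At the same ranks among the falls, several genes are known from root hairs. SHV2 (AT5G49270), a membrane-anchored protein needed for root hair growth, stood at 51.4, 44.4 and 30.2 units in 48 h seedlings, against 1188, 535 and 578 units in 0 h seedlings (log2 change -4.13 ± 0.46, adjusted p = 0.000394). RHS8 (AT1G63450), named as root hair specific, stood at 19.8, 11.8 and 8.73 units in 48 h seedlings, against 369.9, 172 and 178 units in 0 h seedlings (log2 change -4.15 ± 0.37, adjusted p = 0.000170). MOP10 (AT5G05500), a proline-rich cell wall protein of root hairs, stood at 31.5, 33.9 and 25.4 units in 48 h seedlings, against 904, 401 and 544 units in 0 h seedlings (log2 change -4.27 ± 0.51, adjusted p = 0.000529). TIP2;3 (AT5G47450), a tonoplast water and ammonia channel, stood at 115, 87.2 and 112 units in 48 h seedlings, against 2345, 1142 and 1749 units in 0 h seedlings (log2 change -4.01 ± 0.53, adjusted p = 0.000913). In these 4 genes replicate 1 was the highest 0 h sample, and the groups did not overlap. Of the 5 genes on the marker list for root, which holds SHV2, 1 rose, 2 fell and 2 did not pass, with a median change of -3.11 (-3.61 to -2.13 over the 3 pairs). PRP1, a root hair cell wall protein, was at least 9.92-fold lower, and CYP86A1, an enzyme of root suberin, was higher (1.29 ± 0.25, adjusted p = 0.00508). EXPA7, a root hair expansin, stood at -3.11 ± 1.04, adjusted p = 0.0530, which did not pass (adjusted p = 0.00870 with the replicate block over 6 arrays). CASP1, of the Casparian strip, stood at -0.70 ± 0.40, adjusted p = 0.222, which did not pass either. The share of root or root hair cells in these seedlings was not tested. CBF1 (AT4G25490), a transcription factor of the cold response, stood at 150.1, 76.4 and 90.6 units in 48 h seedlings, against 1223, 1587 and 2317 units in 0 h seedlings (log2 change -4.03 ± 0.40, adjusted p = 0.000255). ENH1 (AT5G17170), a plastid rubredoxin-like protein, stood at 71.9, 65.3 and 73.6 units in 48 h seedlings, against 1349, 1014 and 1354 units in 0 h seedlings (log2 change -4.13 ± 0.22, adjusted p = 2.66e-05). PP2-A5 (AT1G65390; -4.28 ± 0.55) and DOG1 (AT5G45830), the seed dormancy regulator (-4.18 ± 0.33), completed the group.

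Gene lists were written for a range of pathways, with earlier results of these data known. Each is described by the number of its tested members that rose or fell, beside the 14.1% of all loci that rose and the 15.8% that fell. Among the pathway lists shown in the plot of calls per list, the largest shares of falling members were in thiamine and vitamin B6 synthesis (62.5%) and plastid isoprenoids (60.7%), and the largest share of rising members was in amino acid transport (61.1%). Cytosolic ribosomal proteins, ribosome assembly factors and vacuolar proton pumps had 0 members called in either direction by limma. Calls were recomputed under 17 alternatives to the processing, which include other scalings and background corrections, fits with the replicate number as a block, and leaving out 1 sample at a time or slide 3. Where an alternative moved a list count that is printed here by over 1.5 times, the count under it is given at the end of the list's account.

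**Figure D2:**
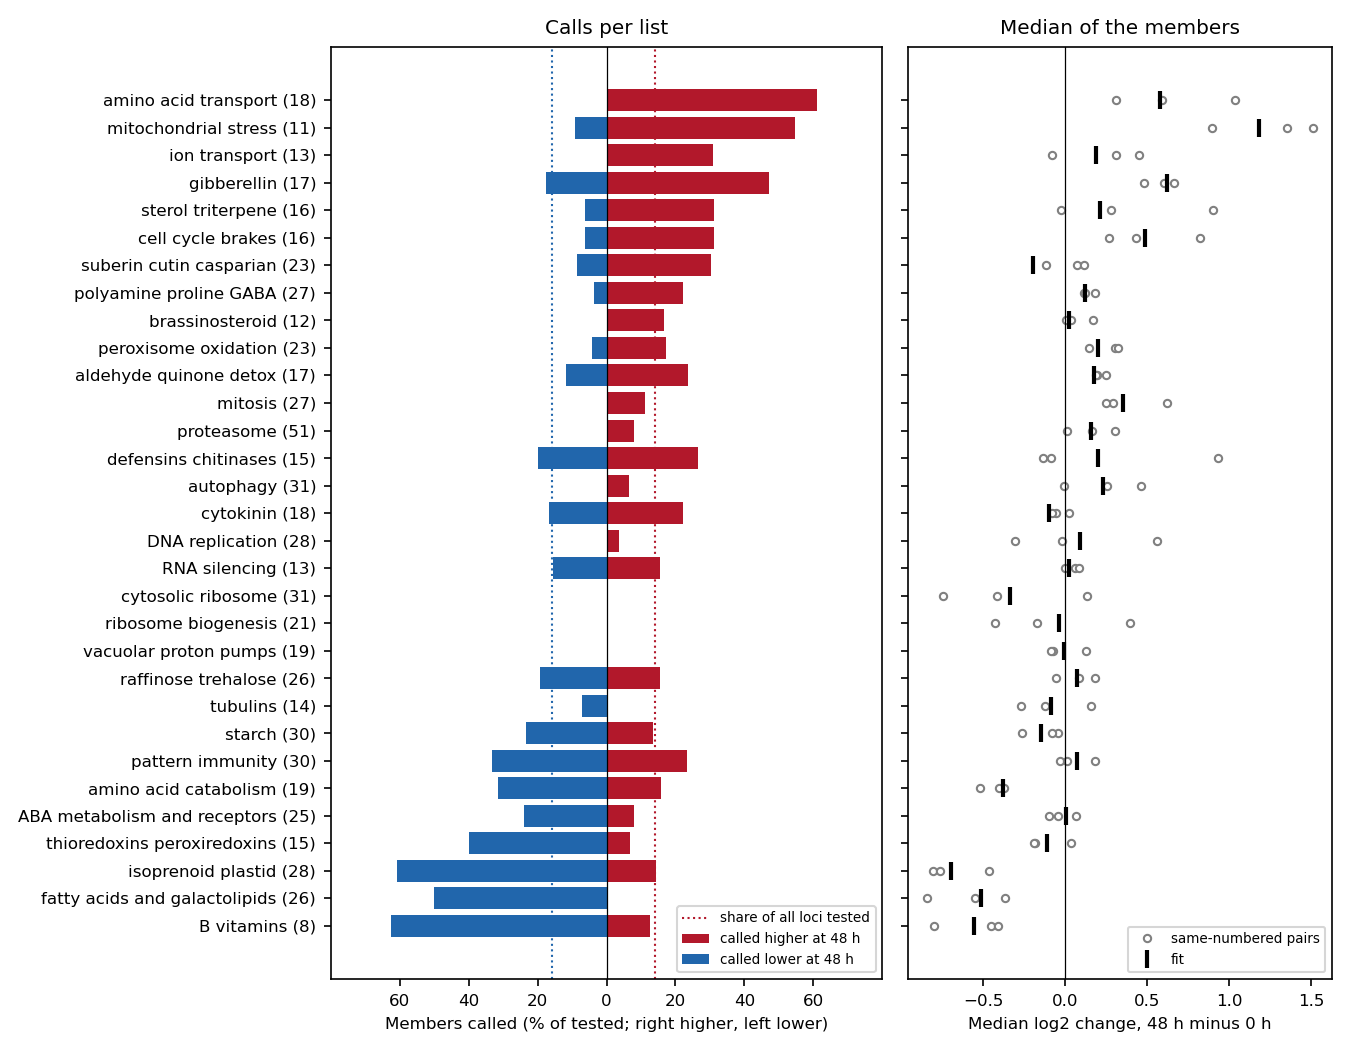
For each gene list, the left panel gives the share of tested members called higher (right of 0) and lower (left of 0) at 48 h, in percent, and the right panel gives the median log2 change (48 h minus 0 h) of the members from the fit and in each of the 3 same-numbered pairs. Amino acid transport reaches 61.1% on the side of higher members and plastid isoprenoids 60.7% on the side of lower ones, against 14.1% and 15.8% of all loci.

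More genes of plastid isoprenoid synthesis fell than rose. The list holds the MEP pathway, which makes the 5-carbon precursors inside the plastid, and the carotenoids and tocopherols made from them. Of 28 tested members 4 rose, 17 fell and 7 did not pass, and the median change was -0.70 (-0.80 to -0.47 over the 3 pairs). In the MEP pathway, CLA1, the entry enzyme, changed by -0.93 ± 0.16, ISPD by -1.4 ± 0.29, CDPMEK by -1.14 ± 0.21 and HDS by -0.60 ± 0.12, all lower. In the carotenoid pathway PSY, the phytoene synthase that commits precursors to carotenoids, fell by 0.89 on the log2 scale, and the desaturases PDS3 and ZDS stood at -0.84 ± 0.18 and -0.73 ± 0.12. LUT1, a hydroxylase of the lutein branch, stood at 577, 475 and 543 units in 48 h seedlings, against 1287, 1743 and 2464 units in 0 h seedlings (log2 change -1.74 ± 0.23, adjusted p = 0.000832). NPQ1, the violaxanthin de-epoxidase that makes zeaxanthin in strong light, stood at 974, 713 and 711 units in 48 h seedlings, against 2017, 2415 and 2773 units in 0 h seedlings (log2 change -1.59 ± 0.18, adjusted p = 0.000473). LUT2, the epsilon cyclase that opens the lutein branch, stood at -1.39 ± 0.26. For LUT1 and NPQ1 every 48 h sample was below every 0 h sample.

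BETA-OHASE 1, a hydroxylase of beta-carotene in the zeaxanthin branch, stood at 3689, 6517 and 2875 units in 48 h seedlings, against 1310.4, 1469 and 1537 units in 0 h seedlings (log2 change 1.52 ± 0.36, adjusted p = 0.0129). Its homologue BETA-OHASE 2 stood at 1.36 ± 0.35, adjusted p = 0.0202, a call that ended under 3 of 17 alternatives (adjusted p 0.0570 to 0.107, without 48 h replicate 2, or 0 h replicate 3, or slide 3). G-TMT, the methyltransferase that turns gamma- into alpha-tocopherol, stood at 380.0, 573 and 356 units in 48 h seedlings, against 185, 201 and 93.5 units in 0 h seedlings (log2 change 1.49 ± 0.31, adjusted p = 0.00690). TAT3, named as a tyrosine aminotransferase and counted in this list, stood at 28777, 59395 and 48110 units in 48 h seedlings, against 2278, 7587 and 8328 units in 0 h seedlings (log2 change 3.05 ± 0.50, adjusted p = 0.00248). Its part in tocopherol synthesis was not tested. Over the alternatives between 14 and 18 members fell. The summed level of the leaf markers given above moved the same way as the falling plastid genes, and the share of green cells was not tested.

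Fatty acid synthesis takes place in the plastid, as do desaturation and galactolipid assembly for the thylakoid membranes. Of 26 tested members of these steps 0 rose, 13 fell and 13 did not pass, and the median change was -0.52 (-0.84 to -0.37 over the 3 pairs). FAD8, a plastid omega-3 desaturase, stood at 362, 416 and 615 units in 48 h seedlings, against 1280.2, 1750.3 and 2797 units in 0 h seedlings (log2 change -2.03 ± 0.30, adjusted p = 0.00158). ACP4, an acyl carrier protein of leaves, stood at 7729.5, 7691 and 7702 units in 48 h seedlings, against 25263, 27324 and 39522 units in 0 h seedlings (log2 change -1.97 ± 0.19, adjusted p = 0.000235). FAD5, a desaturase of plastid palmitic acid, stood at 3011, 3887 and 3182 units in 48 h seedlings, against 11578, 11487 and 13443 units in 0 h seedlings (log2 change -1.86 ± 0.14, adjusted p = 7.59e-05). The 48 h samples lay below the 0 h samples for all 3 genes. ATS1 and ATS2, acyltransferases that build plastid phosphatidic acid, stood at -1.73 ± 0.22 and -1.096 ± 0.14, and FAD6, a plastid omega-6 desaturase, at -1.38 ± 0.15. CAC3, a subunit of the acetyl-CoA carboxylase that commits carbon to fatty acids, stood at -0.78 ± 0.16. Without slide 3 the number of falling members was 8. The number that rose was 1 without 0 h replicate 1 and 1 with the replicate number as a block over the 6 arrays.

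**Figure D3:**
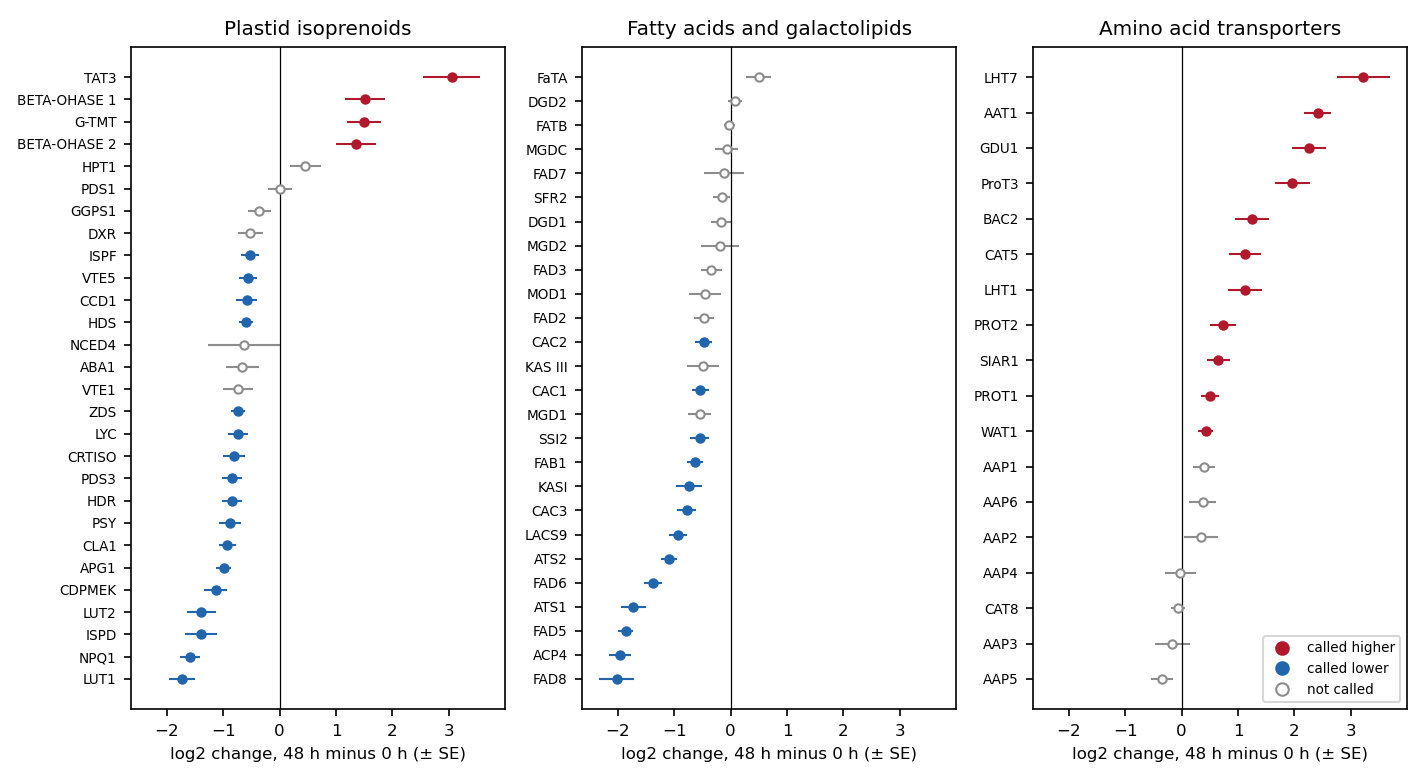
Log2 change, 48 h minus 0 h, of each tested member of the plastid isoprenoid, fatty acid synthesis and amino acid transport lists, with the standard error of the fit as a bar and filled symbols for called members. Plastid isoprenoids hold 17 lower and 4 higher calls, fatty acid synthesis 13 lower and 0 higher, and amino acid transport 11 higher and 0 lower.

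Thiamine and vitamin B6 synthesis had 5 of 8 members lower, with a median of -0.55 (-0.80 to -0.41 over the 3 pairs). THIC, which makes the pyrimidine part of thiamine in the plastid, stood at 2675, 2426 and 3200.1 units in 48 h seedlings, against 5554, 4273 and 5958 units in 0 h seedlings (log2 change -0.92 ± 0.16, adjusted p = 0.00356). PDX1.1, a subunit of the enzyme that makes pyridoxal phosphate, stood at 12037, 15115 and 13634 units in 48 h seedlings, against 29381, 23987 and 26302 units in 0 h seedlings (log2 change -0.97 ± 0.17, adjusted p = 0.00315). Both genes were lower in all 48 h samples than in any 0 h sample. The number of falling members was 3 without 48 h replicate 2, or 0 h replicate 2, or slide 3, or with the 6 arrays alone or quantile normalization, and 2 without 48 h replicates 1 or 3, or 0 h replicate 3, or with the authors' deposited table.

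Plastid peroxiredoxins, which reduce peroxides with electrons from thioredoxins, also fell. Of 15 tested thioredoxins, their reductases and peroxiredoxins 1 rose, 6 fell and 8 did not pass, and the median was -0.11 (-0.19 to 0.04 over the 3 pairs). PRXQ, a thylakoid peroxiredoxin, stood at 3457, 3364 and 4576 units in 48 h seedlings, against 13722, 15540 and 24340 units in 0 h seedlings (log2 change -2.20 ± 0.24, adjusted p = 0.000338). 2-Cys Prx B of the chloroplast stood at 1281, 1362 and 2113 units in 48 h seedlings, against 3817, 4478 and 8872 units in 0 h seedlings (log2 change -1.79 ± 0.32, adjusted p = 0.00354). TPX2, a type II peroxiredoxin outside the plastid, fell as well (-1.94 ± 0.28, adjusted p = 0.00132). TRX5, a cytosolic h-type thioredoxin, was the member that rose, with 19320, 31501 and 30177 units in 48 h seedlings, against 9968, 9320.3 and 7559.9 units in 0 h seedlings (log2 change 1.57 ± 0.24, adjusted p = 0.00158). The 48 h and 0 h samples did not overlap for these 4 genes.

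Starch metabolism split by gene. Of 30 tested members 4 rose, 7 fell and 19 did not pass, and the median was -0.14 (-0.26 to -0.04 over the 3 pairs). The shares were 13.3% and 23.3%, against 14.1% and 15.8% of all loci, so the rising share was near that of all loci. APL1, the large subunit of ADP-glucose pyrophosphorylase that predominates in leaves, stood at 3192, 4477 and 2994 units in 48 h seedlings, against 9713, 9324 and 9636 units in 0 h seedlings (log2 change -1.45 ± 0.16, adjusted p = 0.000379). APL3 and APL4, large subunits known from sink tissues and from sugar feeding, stood at 1512, 2901 and 1636 units in 48 h seedlings, against 604, 652 and 429 units in 0 h seedlings (log2 change 1.80 ± 0.38, adjusted p = 0.00748) and at 788, 1174 and 841 units in 48 h seedlings, against 301, 298 and 397 units in 0 h seedlings (log2 change 1.48 ± 0.35, adjusted p = 0.0123). APL1 was thus lower and its homologues APL3 and APL4 higher at 48 h. The calls of APL3 and APL4 each ended under 1 of the 17 alternatives, without slide 3 for APL3 (adjusted p = 0.0543) and without slide 3 for APL4 (adjusted p = 0.0518). GBSS1, the synthase of amylose, stood at 1.87 ± 0.51, adjusted p = 0.0240, and its call ended under 3 of 17 alternatives (adjusted p 0.0719 to 0.120, without 48 h replicate 2, or 0 h replicate 3, or slide 3). ISA3, a debranching enzyme of starch breakdown, rose (1.103 ± 0.17, adjusted p = 0.00194), while the debranching enzyme LDA and the synthase SS4 fell (-1.17 ± 0.16 and -1.22 ± 0.17). Rising starch genes numbered 8 with the replicate block over 9 arrays, and 1 without slide 3.

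Amino acid transporters rose without an opposing member. Of 18 tested members 11 rose, 0 fell and 7 did not pass, and the median was 0.58 (0.31 to 1.04 over the 3 pairs). LHT7, of the lysine-histidine transporter family, stood at 2272, 3899.7 and 5079.6 units in 48 h seedlings, against 182, 565 and 539 units in 0 h seedlings (log2 change 3.22 ± 0.47, adjusted p = 0.00144). AAT1, a high-affinity transporter of basic amino acids, stood at 1184, 1454 and 1882 units in 48 h seedlings, against 327, 272 and 241 units in 0 h seedlings (log2 change 2.41 ± 0.24, adjusted p = 0.000261). GDU1, a small membrane protein that promotes amino acid export, stood at 3184, 2047 and 1761 units in 48 h seedlings, against 676, 469 and 331 units in 0 h seedlings (log2 change 2.26 ± 0.30, adjusted p = 0.000845). ProT3, a proline transporter, stood at 129, 194 and 177 units in 48 h seedlings, against 44.0, 46.9 and 36.5 units in 0 h seedlings (log2 change 1.96 ± 0.31, adjusted p = 0.00206). The 48 h samples were above the 0 h samples for all 4. The calls of these 4 held under all 17 alternatives, and those of the other 7 each ended under 3 to 12 of them. Rising transporters numbered 7 with median scaling, no filter on dim probes, the 6 arrays alone or the replicate block over 6 arrays; 6 without 48 h replicate 1, or 0 h replicate 2; 5 without 0 h replicate 3; and 4 without 48 h replicate 3, or slide 3.

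Breakdown of branched-chain amino acids and lysine in mitochondria moved mainly the other way. Of 19 tested members 3 rose, 6 fell and 10 did not pass, and the median was -0.38 (-0.52 to -0.37 over the 3 pairs). The shares were 15.8% and 31.6%, against 14.1% and 15.8% of all loci. BCAT-1, a mitochondrial branched-chain aminotransferase, stood at 176, 195 and 158 units in 48 h seedlings, against 569, 558 and 631 units in 0 h seedlings (log2 change -1.74 ± 0.13, adjusted p = 9.23e-05). BCE2, a subunit of the branched-chain keto acid dehydrogenase, stood at 2638, 2686 and 3202 units in 48 h seedlings, against 4476, 4514 and 5868 units in 0 h seedlings (log2 change -0.80 ± 0.17, adjusted p = 0.00871). MGL, methionine gamma-lyase, which splits methionine to methanethiol and can feed isoleucine synthesis, went against them, with 8937, 19267 and 18418 units in 48 h seedlings, against 3063, 2842 and 1980.4 units in 0 h seedlings (log2 change 2.51 ± 0.31, adjusted p = 0.000608). The groups did not overlap for these 3 genes. The other rising members were the electron transfer flavoprotein subunits ETFALPHA (0.43 ± 0.12, adjusted p = 0.0291) and ETFBETA (0.46 ± 0.12, adjusted p = 0.0233). Their calls ended under 10 and 6 of the 17 alternatives, and ETFALPHA had an adjusted p of 0.0767 with the replicate block over 6 arrays. The number of falling members was 3 without 48 h replicate 2, or 0 h replicate 3, and 2 without 48 h replicate 1, or slide 3, or with the authors' deposited table. The number of rising ones was 1 without 48 h replicates 2 or 3, or 0 h replicate 2, or with median scaling or the 6 arrays alone.

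Of 27 tested genes of polyamine, proline and GABA metabolism 6 rose, 1 fell and 20 did not pass, with a median of 0.12 (0.11 to 0.18 over the 3 pairs). AT5G38710, which has no symbol in the reference table, stood at 2009, 1724 and 2584 units in 48 h seedlings, against 844, 1016 and 693 units in 0 h seedlings (log2 change 1.304 ± 0.20, adjusted p = 0.00177). The spermine synthase listed as SPDS3 stood at 4759, 5748 and 6443 units in 48 h seedlings, against 2656, 2732 and 2053 units in 0 h seedlings (log2 change 1.19 ± 0.19, adjusted p = 0.00211). ADC2, the stress-induced arginine decarboxylase that starts polyamine synthesis, stood at 1.14 ± 0.27, adjusted p = 0.0132, and its call ended under 1 of 17 alternatives (adjusted p = 0.0504, without 48 h replicate 2). PAO1, a polyamine oxidase, was the member that fell (-1.08 ± 0.26, adjusted p = 0.0149). The number that fell was 2 without 0 h replicates 1 or 3, or with the replicate block over 6 arrays, and 0 without 48 h replicates 1 or 2, or slide 3. Among 13 ion transporters 4 rose, 0 fell and 9 did not pass. CHX17, a potassium-proton exchanger, stood at 5419.8, 3649 and 6180.0 units in 48 h seedlings, against 1879, 1470.0 and 970.5 units in 0 h seedlings (log2 change 1.84 ± 0.33, adjusted p = 0.00368), and CAX3, a vacuolar calcium-proton exchanger, at 4453, 7035 and 4216 units in 48 h seedlings, against 1897, 2266 and 1877 units in 0 h seedlings (log2 change 1.34 ± 0.20, adjusted p = 0.00143). The count of rising ion transporters was 2 without 48 h replicates 1 or 3, or 0 h replicate 2, or slide 3.

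Genes known to respond to mitochondrial dysfunction rose in 6 of 11 cases, and 1 fell, with a median of 1.18 (0.89 to 1.51 over the 3 pairs). UGT74E2, a glucosyltransferase of the auxin precursor indole-3-butyric acid, stood at 10968, 17225 and 18320 units in 48 h seedlings, against 661, 1677 and 2813 units in 0 h seedlings (log2 change 3.37 ± 0.67, adjusted p = 0.00607). NAC13, a transcription factor of mitochondrial retrograde signalling, stood at 3027, 4726 and 4061 units in 48 h seedlings, against 748, 734 and 799 units in 0 h seedlings (log2 change 2.35 ± 0.29, adjusted p = 0.000616). SOT12, a sulfotransferase, stood at 14863, 24061 and 16522 units in 48 h seedlings, against 3162, 3712 and 4143 units in 0 h seedlings (log2 change 2.31 ± 0.40, adjusted p = 0.00329). These genes rose in every pair, as did AOX1D described above. ABCB23, a mitochondrial ABC transporter, was the member that fell (-0.40 ± 0.13, adjusted p = 0.0427), and its call ended under 12 of the 17 alternatives. The number that fell was 0 without any 1 of the 6 samples, or slide 3, or with the authors' deposited table, no filter on dim probes, normexp background, the 6 arrays alone or the replicate block over 6 arrays. Of 17 aldehyde dehydrogenases, aldo-keto reductases and quinone reductases 4 rose, 2 fell and 11 did not pass. The shares were 23.5% and 11.8%, against 14.1% and 15.8% of all loci. ChlAKR, an aldo-keto reductase of the chloroplast, stood at 2121, 4708 and 4708 units in 48 h seedlings, against 222, 486 and 290.3 units in 0 h seedlings (log2 change 3.52 ± 0.37, adjusted p = 0.000318), and AKR4C8 at 1.32 ± 0.22. The aldehyde dehydrogenases ALDH3I1 and ALDH11A3 fell (-0.84 ± 0.14 and -1.02 ± 0.16). With quantile normalization 8 members of this list rose.

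In peroxisomes, where fatty acids are shortened by beta-oxidation, 4 of 23 tested genes rose and 1 fell. The shares were 17.4% and 4.3%, against 14.1% and 15.8% of all loci. ACX1, an acyl-CoA oxidase of long chains, stood at 12798, 20077 and 22273 units in 48 h seedlings, against 7588, 8376 and 9118 units in 0 h seedlings (log2 change 1.101 ± 0.20, adjusted p = 0.00418), and LACS7, an acyl-CoA synthetase, at 1305, 1536 and 1758 units in 48 h seedlings, against 725, 731 and 715 units in 0 h seedlings (log2 change 1.07 ± 0.14, adjusted p = 0.000813). PCK1, which leads from the glyoxylate cycle to sugar synthesis, rose by less (0.81 ± 0.19, adjusted p = 0.0117). PMDH2, a peroxisomal malate dehydrogenase, fell, with 3041, 4095 and 3949.6 units in 48 h seedlings, against 14336, 9494 and 12181 units in 0 h seedlings (log2 change -1.69 ± 0.19, adjusted p = 0.000461). The number that rose was 7 with the authors' deposited table, and the number that fell was 2 without 48 h replicate 3, or slide 3.

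Pattern-triggered immunity, in which receptors at the cell surface sense microbial molecules, moved in both directions. Of 30 tested members 7 rose, 10 fell and 13 did not pass, and the median was 0.08 (-0.03 to 0.18 over the 3 pairs). FLS2, the receptor of bacterial flagellin, stood at 155, 114 and 109 units in 48 h seedlings, against 804, 1019.7 and 908 units in 0 h seedlings (log2 change -2.86 ± 0.27, adjusted p = 0.000191). PEPR1, a receptor of the plant's own Pep danger peptides, stood at -0.89 ± 0.18. MPK3 and MKK4, kinases of the cascade downstream of such receptors, stood at -1.23 ± 0.16 and -0.89 ± 0.17. The ubiquitin ligases PUB22 and PUB23, which dampen the response, also fell (-1.47 ± 0.22 and -2.17 ± 0.24). The related ligase PUB24 rose (0.75 ± 0.24, adjusted p = 0.0461), and its call ended under 9 of 17 alternatives (adjusted p 0.0519 to 0.189, without 48 h replicates 2 or 3, or 0 h replicates 1 or 3, or slide 3, or with median scaling, no filter on dim probes, normexp background or the 6 arrays alone). WAK3 stood at 414, 316 and 608 units in 48 h seedlings, against 10.4, 33.7 and 20.5 units in 0 h seedlings (log2 change 4.48 ± 0.48, adjusted p = 0.000344), WAKL10 at 791, 1082 and 1786 units in 48 h seedlings, against 145, 273 and 210.2 units in 0 h seedlings (log2 change 2.51 ± 0.32, adjusted p = 0.000721) and WAK1 at 5865, 8308 and 6854 units in 48 h seedlings, against 1008, 1532 and 1422 units in 0 h seedlings (log2 change 2.42 ± 0.20, adjusted p = 0.000114). These 3 genes belong to the wall-associated kinase family, whose members bind cell wall pectin, and their 48 h samples were all above their 0 h samples. FRK1, a marker gene of the flagellin response, rose (2.05 ± 0.51, adjusted p = 0.0160), and its call ended under 2 of 17 alternatives (adjusted p 0.0514 to 0.0601, without 48 h replicate 3, or 0 h replicate 2). The calls of the other 2 rising members each ended under 8 of the 17 alternatives. Rising immunity genes numbered 4 without 0 h replicate 2, or with median scaling.

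Small defensins, cysteine-rich antimicrobial peptides, and chitinases gave 4 rises and 3 falls among 15 tested members. The shares were 26.7% and 20%, against 14.1% and 15.8% of all loci. CHIA, an acidic chitinase, stood at 1219.7, 844 and 1069.7 units in 48 h seedlings, against 467, 285 and 209.9 units in 0 h seedlings (log2 change 1.77 ± 0.29, adjusted p = 0.00245). The defensin PDF1.3 stood at 14642, 32049 and 57238 units in 48 h seedlings, against 98299, 110776 and 100793 units in 0 h seedlings (log2 change -1.78 ± 0.46, adjusted p = 0.0185), and its call ended under 1 of 17 alternatives (adjusted p = 0.0577, without 0 h replicate 2). LCR67, another defensin-like gene, went the other way (2.73 ± 0.68, adjusted p = 0.0167), and its call ended under 4 of 17 alternatives (adjusted p 0.0519 to 0.179, without 0 h replicate 3, or slide 3, or with normexp background, replicate block 0.0527 over 6 arrays). The defensins are similar in sequence, and cross-hybridisation between their probes was not tested. The number that rose was 2 without 0 h replicate 3, or with the replicate block over 6 arrays, and 1 without slide 3. The number that fell was 1 without 48 h replicates 1 or 2, or 0 h replicate 3, or with quantile normalization, and 0 without 0 h replicate 2.

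Hormone genes were read by their place in each pathway. Of 18 tested cytokinin genes 4 rose, 3 fell and 11 did not pass. RR16 and ARR3 are type-A response regulators, which are induced by cytokinin and feed back on it. RR16 stood at 49.1, 30.5 and 26.2 units in 48 h seedlings, against 308, 453 and 879 units in 0 h seedlings (log2 change -3.87 ± 0.39, adjusted p = 0.000266), and ARR3 at 19.96, 15.1 and 9.90 units in 48 h seedlings, against 194, 112 and 116 units in 0 h seedlings (log2 change -3.24 ± 0.30, adjusted p = 0.000198). CKX5, a cytokinin oxidase, which degrades the hormone, rose (1.51 ± 0.23, adjusted p = 0.00172), and CKX2 was at least 5.72-fold higher, with 63.7, 12.8 and 53.3 units in 48 h seedlings, against 3.71, 1.60 and 2.14 units in 0 h seedlings (adjusted p = 0.00158). The call of CKX2 ended under 1 of 16 alternatives (adjusted p = 0.475, with normexp background). ARR6, another type-A regulator, rose (0.95 ± 0.13, adjusted p = 0.00103), against the direction of RR16 and ARR3. The synthesis gene IPT5 stood at -1.55 ± 0.40, adjusted p = 0.0202, and its call ended under 4 of 17 alternatives (adjusted p 0.0516 to 0.0926, without 48 h replicates 2 or 3, or 0 h replicate 1, or slide 3).

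For abscisic acid, CYP707A3, the hydroxylase that inactivates the hormone, stood at 1139, 1160.5 and 1435 units in 48 h seedlings, against 14615, 16268 and 16472 units in 0 h seedlings (log2 change -3.67 ± 0.15, adjusted p = 1.41e-05). BGLU18, a glucosidase that frees abscisic acid from its glucose ester, stood at 72697, 85595 and 73020 units in 48 h seedlings, against 8888, 26357 and 25818 units in 0 h seedlings (log2 change 2.08 ± 0.39, adjusted p = 0.00471). The groups were fully separate for both genes. The receptors PYL4, PYL5 and PYL6 fell (-1.08 ± 0.14, -1.24 ± 0.14 and -1.56 ± 0.29), while RCAR1, a receptor of the same family, rose (0.69 ± 0.14, adjusted p = 0.00644). Of the 25 tested members 2 rose, 6 fell and 17 did not pass. Rising members numbered 4 with the authors' deposited table.

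Of 17 tested gibberellin genes 8 rose, 3 fell and 6 did not pass, with a median of 0.62 (0.48 to 0.67 over the 3 pairs). The shares were 47.1% and 17.6%, against 14.1% and 15.8% of all loci, so the falling share was near that of all loci. Genes of synthesis, of inactivation and of the response were among the rises. RGL3, a DELLA repressor of the response, stood at 182, 191 and 239 units in 48 h seedlings, against 76.1, 66.5 and 73.1 units in 0 h seedlings (log2 change 1.498 ± 0.15, adjusted p = 0.000264), whereas RGA1, another DELLA gene, fell (-0.67 ± 0.15, adjusted p = 0.00951). The receptor GID1A rose (0.77 ± 0.17, adjusted p = 0.00904). GA2OX6, which inactivates gibberellin, fell, with 737, 586 and 1189.6 units in 48 h seedlings, against 2084, 2779 and 4125 units in 0 h seedlings (log2 change -1.85 ± 0.31, adjusted p = 0.00255), and GA2OX4, of the same enzyme family, rose (2.01 ± 0.40, adjusted p = 0.00597). The call of GA2OX4 ended under 2 of 17 alternatives (adjusted p 0.0560 to 0.567, without slide 3, or with normexp background). GA20OX3, a synthesis gene, stood at 1.85 ± 0.52, adjusted p = 0.0273, and its call ended under 5 of 17 alternatives (adjusted p 0.0755 to 0.197, without 48 h replicates 2 or 3, or 0 h replicate 3, or slide 3, or with normexp background). Another DELLA gene, RGL1, fell (-0.43 ± 0.14, adjusted p = 0.0476), and its call ended under 11 of 17 alternatives (adjusted p 0.0518 to 0.179, without 48 h replicates 1, 2 or 3, or 0 h replicates 2 or 3, or slide 3, or with the deposited table, no filter on dim probes, normexp background or the 6 arrays alone, replicate block 0.0518 over 6 arrays). The number of rising genes was 5 without slide 3, and 3 with normexp background. Among 12 brassinosteroid genes 2 rose and 0 fell, and the rising share of 16.7% was near the 14.1% of all loci. CYP90D1, a synthesis enzyme, stood at 717, 791 and 929 units in 48 h seedlings, against 404, 325 and 218 units in 0 h seedlings (log2 change 1.4 ± 0.24, adjusted p = 0.00278), and it was the brassinosteroid gene whose call held under all 17 alternatives. The number of rising brassinosteroid genes was 5 without 0 h replicate 1, and 1 without 48 h replicates 1, 2 or 3, or 0 h replicates 2 or 3, or slide 3, or with median scaling, no filter on dim probes, normexp background or the 6 arrays alone. The number of falling ones was 1 without 48 h replicate 3, or with median scaling or normexp background.

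**Figure D4:**
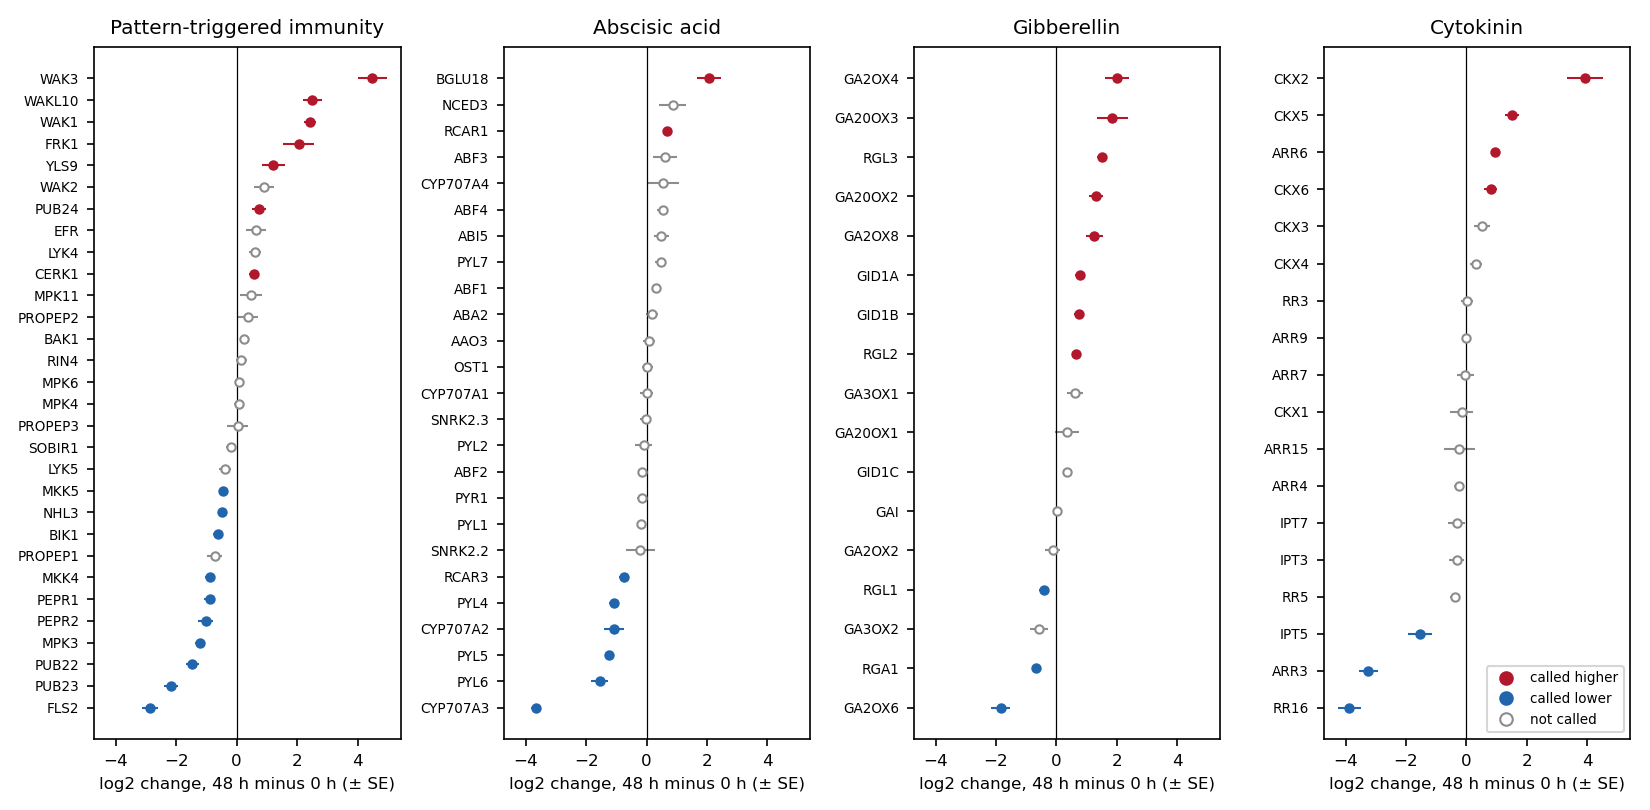
Log2 change, 48 h minus 0 h, of each tested member of the lists for pattern-triggered immunity and for abscisic acid, gibberellin and cytokinin, with the standard error of the fit as a bar and filled symbols for called members. Immunity runs from FLS2 at -2.86 to WAK3 at 4.48, RR16 lies at -3.87, and the fitted value of CKX2 is no bound, since it was well above background on 0 of the 0 h arrays.

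The genes that restrain the cell cycle or respond to DNA damage gave 5 rises and 1 fall among 16 tested, with a median of 0.49 (0.27 to 0.82 over the 3 pairs). SMR7 (AT3G27630), an inhibitor of cyclin-dependent kinases, stood at 508, 546 and 622 units in 48 h seedlings, against 147, 129.5 and 172 units in 0 h seedlings (log2 change 1.90 ± 0.23, adjusted p = 0.000609). SMR5 (AT1G07500), of the same family, stood at 826, 2005 and 1154 units in 48 h seedlings, against 447, 381 and 445 units in 0 h seedlings (log2 change 1.55 ± 0.29, adjusted p = 0.00442). XRI1, a gene first found through its induction by X-rays, stood at 350.2, 423 and 486 units in 48 h seedlings, against 183, 195 and 233 units in 0 h seedlings (log2 change 1.04 ± 0.15, adjusted p = 0.00147). All 3 were higher in each 48 h sample than in any 0 h sample. ICK1, a kinase inhibitor of another family, was the member that fell (-0.56 ± 0.15, adjusted p = 0.0251). The number of rises was 9 without 0 h replicate 3, and 3 without 48 h replicates 1 or 2, or 0 h replicate 2, or with median scaling. The number of falls was 2 with median scaling or the replicate block over 9 arrays, and 0 without 48 h replicates 1 or 3, or 0 h replicates 2 or 3, or slide 3, or with the authors' deposited table or the 6 arrays alone. TSO2, the small subunit of ribonucleotide reductase, which supplies the building blocks of DNA, stood at 29498, 39965 and 27866 units in 48 h seedlings, against 7415, 12584 and 15938 units in 0 h seedlings (log2 change 1.49 ± 0.27, adjusted p = 0.00383), and it was the gene called among 28 of DNA replication. That number was 2 without 0 h replicate 3, or with the replicate block over 6 arrays. In the main fit the rising share of this list was 3.6%, below the 14.1% of all loci. Of 27 genes of mitosis 3 rose, 0 fell and 24 did not pass. Their rising share of 11.1% was no larger than the 14.1% of all loci. CYCB1;1, a cyclin of dividing cells, stood at 1.03 ± 0.28, adjusted p = 0.0230, and its call ended under 4 of 17 alternatives (adjusted p 0.0571 to 0.0812, without 48 h replicate 3, or 0 h replicates 1 or 2, or with the 6 arrays alone). The number of rising mitosis genes was 8 without 0 h replicate 3, or with the authors' deposited table; 5 without slide 3, or with the replicate block over 6 arrays; 1 with normexp background or the 6 arrays alone; and 0 without 48 h replicate 3, or 0 h replicates 1 or 2.

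Subunits of large housekeeping complexes were seldom called. Of 31 cytosolic ribosomal proteins limma called 0, with 1 at an unadjusted p under 0.05, and the median was -0.34 (-0.74 to 0.13 over the 3 pairs). Without 0 h replicate 1, however, 14 of the 31 were called lower. Of 21 ribosome assembly factors 0 were called and 0 had an unadjusted p under 0.05, and 2 were called lower without 0 h replicate 1. Of 19 subunits of the vacuolar proton pumps 0 were called, with 5 at an unadjusted p under 0.05. The number of those called lower was 2 without 0 h replicate 1, or with the replicate block over 9 arrays, and 1 without 0 h replicate 3, or with median scaling, and the number called higher was 1 without 48 h replicate 1, or with the authors' deposited table. NAC053, a transcription factor that raises proteasome genes when the proteasome is overloaded, stood at 7780.1, 8144 and 8658 units in 48 h seedlings, against 5548, 4387 and 3062 units in 0 h seedlings (log2 change 0.96 ± 0.21, adjusted p = 0.00874). Its call held under all 17 alternatives, and it was counted with 50 proteasome subunits and regulators, of which 3 rose and 0 fell. With NAC053 counted, the number that rose was 8 with quantile normalization; 7 with the authors' deposited table; 2 without 48 h replicates 1 or 3, or with normexp background; and 1 without 48 h replicate 2, or 0 h replicates 1 or 2, or with median scaling, no filter on dim probes or the 6 arrays alone. The number that fell was 1 without 0 h replicate 1.

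Of 31 autophagy genes 2 rose, 0 fell and 29 did not pass. Their rising share of 6.5% was below the 14.1% of all loci. AT2G44140, which has no symbol in the reference table, stood at 40.6, 53.3 and 28.1 units in 48 h seedlings, against 13.5, 13.9 and 10.5 units in 0 h seedlings (log2 change 1.65 ± 0.24, adjusted p = 0.00149), and its call ended under 1 of 17 alternatives (adjusted p = 0.339, with normexp background). The number of rising autophagy genes was 7 with the authors' deposited table; 4 without 0 h replicate 1; 1 without 48 h replicate 3, or 0 h replicates 2 or 3, or slide 3, or with the 6 arrays alone or the replicate block over 6 arrays; and 0 with normexp background. Among 14 tubulins limma called 1, TUA3 (-0.67 ± 0.15, adjusted p = 0.0110, and 0.0642 with the replicate block over 6 arrays). The number of falling tubulins was 3 without 0 h replicate 1, or with median scaling, and 0 without slide 3. In RNA silencing, where small RNAs guide Argonaute proteins to their targets, 2 of 13 tested genes rose and 2 fell. Each share was 15.4%, near the 14.1% and 15.8% of all loci. AGO2, an Argonaute of antiviral defence, stood at 335, 399 and 461 units in 48 h seedlings, against 204, 206 and 207 units in 0 h seedlings (log2 change 0.94 ± 0.15, adjusted p = 0.00218), and AGO3, its neighbour in the genome, at 215, 323 and 399.8 units in 48 h seedlings, against 819, 936 and 834 units in 0 h seedlings (log2 change -1.51 ± 0.26, adjusted p = 0.00301). These paralogues were thus called in opposite directions. AGO7, which acts with a leaf-shape small RNA pathway, fell (-0.62 ± 0.13, adjusted p = 0.00740). The number of rising silencing genes was 1 without 48 h replicate 3, or 0 h replicate 2, or slide 3.

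Barrier polymers and terpenes of the root were described beside the root markers. Of 23 genes of suberin, cutin and the Casparian strip 7 rose, 2 fell and 14 did not pass, although the median was -0.19 (-0.12 to 0.12 over the 3 pairs). FACT, which joins caffeic acid to fatty alcohols of suberin and root waxes, stood at 6386, 5554 and 9508 units in 48 h seedlings, against 2262, 1239.6 and 1061 units in 0 h seedlings (log2 change 2.28 ± 0.31, adjusted p = 0.000995), and FAR5, a reductase that makes such alcohols, at 488, 958 and 795 units in 48 h seedlings, against 231, 217 and 163 units in 0 h seedlings (log2 change 1.83 ± 0.27, adjusted p = 0.00148). CASP5, a scaffold protein of the Casparian strip, stood at 10.2, 7.16 and 14.9 units in 48 h seedlings, against 160.3, 77.1 and 127 units in 0 h seedlings (log2 change -3.50 ± 0.42, adjusted p = 0.000582). GPAT4, an acyltransferase of cutin, fell by less (-0.53 ± 0.12, adjusted p = 0.00915). Rising barrier genes numbered 4 without 48 h replicates 1 or 3, or 0 h replicate 3, and 3 without slide 3. Of the 5 root markers, 2 fell, 1 rose and 2 did not pass, with a median of -3.11 (-3.61 to -2.13 over the 3 pairs), while their summed level overlapped between the times. The part of root tissue in these changes was not tested.

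Of 16 genes of sterols and other terpenes 5 rose, 1 fell and 10 did not pass. TPS04, the synthase that starts the volatile homoterpene of leaves, stood at 4371, 10209 and 8238 units in 48 h seedlings, against 143, 771 and 476 units in 0 h seedlings (log2 change 4.26 ± 0.66, adjusted p = 0.00191). THAS1, which makes the root triterpene thalianol, stood at 7826, 6668 and 7766 units in 48 h seedlings, against 3648, 2265 and 1683 units in 0 h seedlings (log2 change 1.62 ± 0.31, adjusted p = 0.00499). PEN3, another triterpene synthase, fell (-1.38 ± 0.31, adjusted p = 0.0108). TPS10, a monoterpene synthase, was at least 7.53-fold higher (adjusted p = 0.00943), and its call ended under 2 of 16 alternatives (adjusted p 0.0814 to 0.206, without slide 3, or with normexp background). BARS1, the baruol synthase, was at least 4.03-fold higher (adjusted p = 0.00277), and its call ended under 1 of 16 alternatives (adjusted p = 0.795, with normexp background). The number of rises was 3 without slide 3, or with the stricter filter or normexp background. The number of falls was 2 with median scaling, the 6 arrays alone or the replicate block over 6 arrays, and 0 with the stricter filter. In galactinol, raffinose and trehalose metabolism 4 of 26 rose and 5 fell. These shares, 15.4% and 19.2%, were near the 14.1% and 15.8% of all loci. GolS4, a galactinol synthase, stood at 1429, 1479 and 2278 units in 48 h seedlings, against 106, 66.0 and 54.6 units in 0 h seedlings (log2 change 4.54 ± 0.28, adjusted p = 4.35e-05), and GolS1 at 4172, 3199 and 4652 units in 48 h seedlings, against 2053, 1245 and 1020.0 units in 0 h seedlings (log2 change 1.52 ± 0.26, adjusted p = 0.00297). TPPI, a trehalose phosphatase, stood at 117, 96.8 and 92.6 units in 48 h seedlings, against 469.7, 455 and 448 units in 0 h seedlings (log2 change -2.17 ± 0.17, adjusted p = 0.000108), and TPPF at -1.20 ± 0.25. GolS4 and GolS1 were higher, and these phosphatases lower, in all 48 h samples. The number of falls was 3 without 48 h replicates 2 or 3, or 0 h replicate 2, or slide 3, or with quantile normalization.

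Called loci were also read along the chromosomes, in the gene order of the reference table. Runs of at least 3 measured neighbours, all called the same way with at least a 2-fold change, numbered 58, of which 36 were higher and 22 lower at 48 h. They held 197 loci, and 116 of these had no symbol. Runs could form from the 1683 rises and 1911 falls of at least 2-fold among all 21042 loci. How many runs so many calls would give in random gene order was not tested. Without slide 3 there were 24 runs, with the normexp background 29, and with the stricter filter on dim probes 37.

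The longest run held 9 loci from AT5G39090 to AT5G39190 on chromosome 5, among them the germin-like genes GLP6 and GER2, and the mean change was 2.08. AT5G39180 stood at 3654, 2196 and 2062 units in 48 h seedlings, against 1153, 589.9 and 285 units in 0 h seedlings (log2 change 2.14 ± 0.46, adjusted p = 0.00818), and AT5G39150 at 2316, 1459.5 and 1676 units in 48 h seedlings, against 821, 399 and 234 units in 0 h seedlings (log2 change 2.07 ± 0.41, adjusted p = 0.00628). The groups did not overlap for either locus. All 9 were called in 6 of the 17 alternatives. The next held the 5 loci from AT1G26380 to AT1G26420 on chromosome 1, none with a symbol, and AT1G26390 and AT1G26410 of this run are described above. AT1G26380 stood at 2962, 2210.0 and 5565 units in 48 h seedlings, against 202, 245 and 524 units in 0 h seedlings (log2 change 3.49 ± 0.46, adjusted p = 0.000883). AT1G26420 stood at 1840.0, 1741 and 3407 units in 48 h seedlings, against 167, 236 and 440.3 units in 0 h seedlings (log2 change 3.1 ± 0.43, adjusted p = 0.00113). AT1G26400 was well above background on 0 of the 0 h arrays and at least 11.3-fold higher (adjusted p = 0.000169). All 5 were called in 15 of the 17 alternatives.

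The next run held GSTU4, GSTU3, GSTU2 and GSTU1, glutathione transferases of the tau class, and their neighbour AT2G29500 on chromosome 2, with a mean change of 2.46. GSTU1 stood at 5792, 11686 and 8299 units in 48 h seedlings, against 1339, 1266 and 1145 units in 0 h seedlings (log2 change 2.73 ± 0.27, adjusted p = 0.000247), and GSTU4 had the largest change, at 2918, 6304 and 3409 units in 48 h seedlings, against 192, 716 and 366 units in 0 h seedlings (log2 change 3.43 ± 0.46, adjusted p = 0.000912). All 5 loci were called in all 17 alternatives. The 5 loci from AT5G37940 to AT5G37990 on chromosome 5 had a mean change of 1.82, and all 5 were called in 8 of the 17. AT5G37990 stood at 566, 494 and 532 units in 48 h seedlings, against 180.4, 90.3 and 74.1 units in 0 h seedlings (log2 change 2.32 ± 0.42, adjusted p = 0.00396). The 5 loci from AT4G15660 to AT4G15700 on chromosome 4 fell, with a mean of -1.63, and all 5 were called in 11 of the 17. AT4G15690 stood at 195, 179 and 160.4 units in 48 h seedlings, against 781, 624 and 949.9 units in 0 h seedlings (log2 change -2.12 ± 0.32, adjusted p = 0.00153). Neighbours of similar sequence can share signal between probes, and this was not tested.

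**Figure D5:**
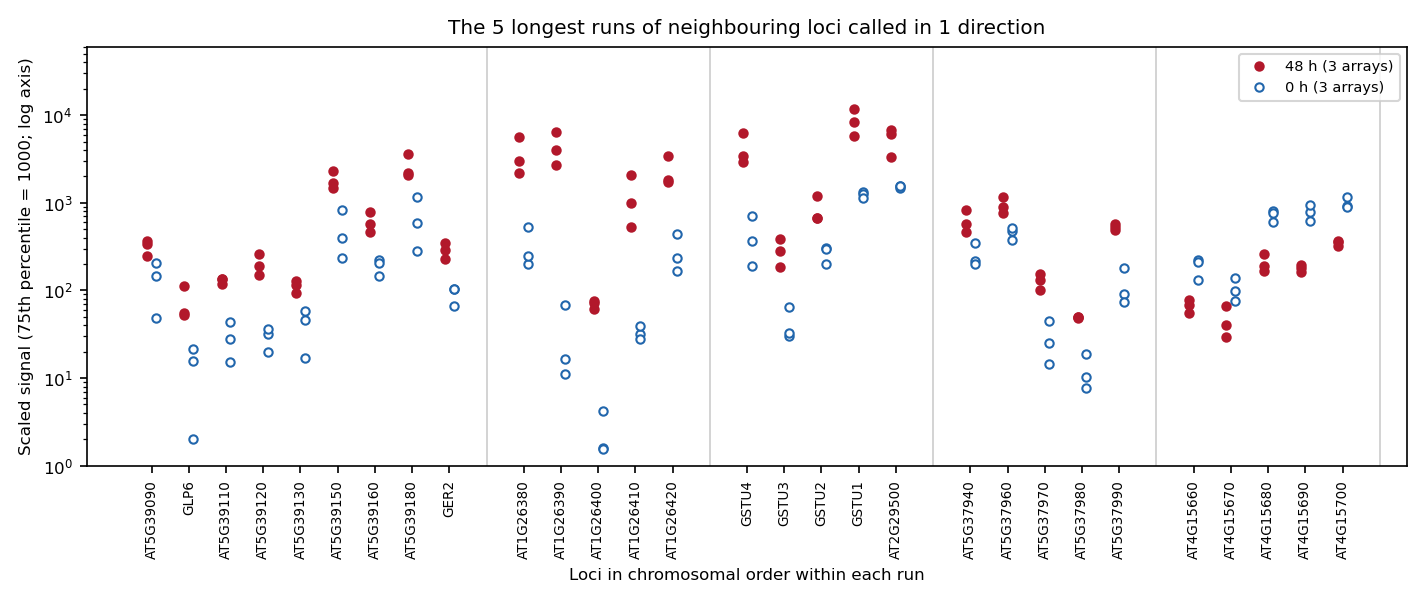
Scaled signal (75th percentile of each array = 1000, log axis) of the loci of the 5 longest runs of neighbours, in chromosome order within each run, with each of the 3 samples at 48 h and at 0 h as a point. In the first 4 runs the 48 h points lie above the 0 h points of the same locus, and in the run on chromosome 4 they lie below, by a mean log2 change of -1.63.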

How the data were processed

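Per the labels' protocols, RNA of each sample was labelled with Cy3 and hybridised to a 1-colour Agilent array. Per the submitters' processing notes, images were read with Agilent Feature Extraction 9.5.3.1, whose deposited scanner files hold the processed signal intensity of each spot, in linear units. A deposited table of the authors' processed values per probe was used as an alternative and treated as a linear ratio. Differences of its log2 values between arrays were set against those of the processed signal intensity, less the median discrepancy of each array. Apart from that constant per array, they were equal within 0.01 for 99.99% of comparisons among probes above background. Column medians lay between 0.901 and 1.11. How the authors scaled and centred it is not given in the sources used here.

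Control spots and outlier flags were left out, log2 intensity was taken minus each array's 75th percentile, and a locus with several probes (541 loci) took the values of its brightest probe on average. Among 456 tested loci with several probes, 130 were called and all probes moved the same way in 120 of these. A locus entered the test where all 3 arrays of some time had it well above background. The model, limma 3.58.1 under R 4.3.3, was fitted to all 9 arrays (6 residual degrees of freedom, median standard error 0.194), with Benjamini-Hochberg adjustment over 21042 loci. The number of arrays limits the precision. The scripts were tested on simulated data.

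Names came from RefSeq's gene table for TAIR10.1, which holds 25449 of the 25665 loci and gives 10189 a symbol. Probe sequences, proteins and promoters were not used here. The gene lists and members were chosen with earlier results of these data known. Loci were named by size of change within loci without a symbol (12 each way, and 4 lower bounds each way), by ranks 9 to 16 among loci with a symbol, up to 4 called members of each list and members that moved against their list, and the 5 longest runs. Other list members in the text were named after their values were seen. A list of iron peptides and a list of glutaredoxins are not reported as lists, since the table names few of their members.

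Same-numbered 48 h and 0 h samples shared a slide, so the replicate number pairs the samples by slide. Their deviations from the group means correlated at 0.255, 0.317 and 0.401 over loci, against -0.277 to 0.001 for other pairs. Deviations from a group mean cancel out within a time, so part of that contrast is built in. The main fit leaves the pairing out. Fits with the replicate number as a block, over 6 and over 9 arrays, are among the 17 alternatives tried per locus. Of these, leaving out slide 3 was chosen after seeing the data.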

Additional observations from a re-analysis of the deposited data

How the results depend on the processing

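Calls were recomputed under 17 alternatives: other scalings, normexp background, the deposited table, other filters on dim probes, the 6 arrays alone, the replicate block and each left-out sample or slide 3. Counts of called loci moved by over 1.5 times in 2 cases: 1108 loci rose at least 2-fold with the normexp background, and 1868 loci rose without slide 3. Leaving out 1 sample gave 4654 to 6972 calls, with 2094 to 3321 higher and 2560 to 3651 lower, 1407 to 1922 higher at least 2-fold, 1716 to 2069 lower at least 2-fold, and 2446 to 3782 calls without a symbol. With the replicate number as a block, 2928 loci rose and 3186 fell over 6 arrays, and 3225 rose and 3519 fell over 9 arrays. Among the loci described above, this pairing changed no call other than those printed with a block value or count. Of 291 called loci followed, 179 kept their call under all alternatives and 112 lost it under at least 1. GA2OX8 reversed with the normexp background, at -0.33. List counts and medians moved in 259 recomputations and stayed in 1736. The cause of these shifts was not tested. Runs numbered 159 when any fold change counted. Loci not well above background at either 48 h or 0 h have only a bound of their change, 3 samples per time limit the precision, and the descriptions by protein similarity and promoter motifs that had been planned were not run.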
